A study of Homo sapiens with 4 samples.

Results

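Domains were read around 8 genes at 3 loci where rearrangements that cross domain borders are known to cause human disease. The genes were SHH and LMBR1 on chromosome 7, KCNJ2 and SOX9 on chromosome 17, and WNT6, IHH, EPHA4 and PAX3 on chromosome 2. They were chosen by name, out of 20037 protein-coding genes of the RefSeq annotation (GRCh38.p14) on the 24 chromosomes of the files. Each window ran from 1 Mb before to 1 Mb after the genes of its locus, which gave 3.09 Mb around SHH, 3.96 Mb around SOX9 and 5.44 Mb around EPHA4. These windows held 24 of 5018 and 21 of 5020 intervals in shLUC replicates 1 and 2, and 20 of 4922 and 23 of 4209 intervals in shHNRNPU replicates 1 and 2.

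The data were Hi-C libraries of H1 cells, an established line of human pluripotent stem cells (hPSCs). They compare chromosome folding between cells with a knockdown aimed at HNRNPU, a nuclear RNA-binding protein, and control cells. Hi-C joins and sequences pieces of DNA that lie close together in the nucleus, here after cutting with HindIII. All cells received a virus with a short hairpin RNA and puromycin selection, and the hairpin targeted HNRNPU (shHNRNPU, 2 libraries) or luciferase, which human cells do not have (shLUC, the control, 2 libraries). For each library the files list domains (stretches of chromosome that mostly contact their own DNA), regions called as boundary, and gaps, in bins of 40 kb and without contact counts. The number of read pairs is unknown, and the level of HNRNPU was not measured here. The labels do not say whether the repeats came from separate cultures, so each p-value measures only the spread between these libraries. Over the whole series the libraries had 4018, 4009, 3981 and 3419 domains (shLUC 1 and 2, then shHNRNPU 1 and 2), so shHNRNPU replicate 2 had the fewest. Within the 3 windows the numbers were 20, 21, 20 and 19 domains, and that library lay 1 domain below the next.

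A domain limits which enhancers and promoters meet, since contacts are denser inside it than across its borders. SHH (Sonic hedgehog) is a signal that patterns the limb and neural tube, and its limb enhancer lies inside an intron of LMBR1, a membrane protein gene far from SHH. SOX9 is a transcription factor of cartilage and testis with enhancers spread over the gene desert beside it, and duplications that join this desert to KCNJ2, a potassium channel gene, cause a limb malformation. EPHA4 is an ephrin receptor whose surroundings hold limb enhancers, and rearrangements that remove or move its domain borders bring these to PAX3, a transcription factor of neural crest and muscle, to WNT6, a secreted Wnt ligand, or to IHH, the hedgehog ligand of growing cartilage.

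The 250 bases before the start of 4 of these genes are shown, read 5′ to 3′ on the strand of the gene from RefSeq (GRCh38.p14). SHH, KCNJ2 and WNT6 were chosen because the border nearest their start set which domain held them, and PAX3 because its start lay far from any border. The border nearest LMBR1 did so too, but its sequence is not shown. Capitals mark AAGCTT, the site that HindIII cuts, and the GC box GGGCGG, searched on both strands.
SHH, chr7:155812464-155812713, minus strand: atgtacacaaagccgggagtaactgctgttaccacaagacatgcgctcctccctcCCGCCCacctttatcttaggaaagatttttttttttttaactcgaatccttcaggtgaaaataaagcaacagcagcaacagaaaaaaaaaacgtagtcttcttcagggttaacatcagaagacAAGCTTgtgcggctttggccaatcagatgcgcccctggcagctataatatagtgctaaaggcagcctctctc
KCNJ2, chr17:70169282-70169531, plus strand: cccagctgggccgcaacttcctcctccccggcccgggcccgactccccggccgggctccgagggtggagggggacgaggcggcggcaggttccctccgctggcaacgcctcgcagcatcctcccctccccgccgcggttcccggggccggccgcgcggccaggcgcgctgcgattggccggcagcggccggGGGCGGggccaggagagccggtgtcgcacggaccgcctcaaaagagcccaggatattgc
WNT6, chr2:218859555-218859804, plus strand: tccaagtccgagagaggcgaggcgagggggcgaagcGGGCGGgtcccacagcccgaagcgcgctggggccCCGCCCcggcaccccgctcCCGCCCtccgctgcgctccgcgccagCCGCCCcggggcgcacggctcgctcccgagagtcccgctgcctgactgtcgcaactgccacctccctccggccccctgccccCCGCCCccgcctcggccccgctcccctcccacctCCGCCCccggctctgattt
PAX3, chr2:222298999-222299248, minus strand: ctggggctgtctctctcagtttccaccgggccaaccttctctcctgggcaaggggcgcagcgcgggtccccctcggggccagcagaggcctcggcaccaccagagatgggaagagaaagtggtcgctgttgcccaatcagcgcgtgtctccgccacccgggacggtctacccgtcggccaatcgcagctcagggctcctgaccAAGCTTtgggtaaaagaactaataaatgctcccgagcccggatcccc
SHH and PAX3 each held 1 HindIII site here, while KCNJ2 and WNT6 held none. The windows of LMBR1, IHH and EPHA4, which are not shown, held none either. Of the 35116 promoter windows in the table, 5.02% held the HindIII site and 42.6% a GC box in these 250 bases. GC boxes numbered 6 at WNT6, 1 at KCNJ2, 1 at SHH and 0 at PAX3, with a GC content of 79.2%, 77.6%, 44.4% and 64.0%. A bin of 40 kb is far longer than these windows, so the files do not place a border within them.

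At the SHH locus, SHH and LMBR1 lay in 1 domain in 3 of the 4 libraries, in both shHNRNPU libraries and in shLUC replicate 2. SHH runs from 155799980 to 155812463 on chromosome 7 and LMBR1 from 156669012 to 156893183, both on the minus strand, and their starts are 1081 kb apart. The shared domain ran from 155.80 to 156.96 Mb in shLUC replicate 2 and from 155.80 to 156.92 Mb in both shHNRNPU libraries. In shLUC replicate 1 the domain between the genes ran from 155.84 to 156.88 Mb, 1 bin shorter at each end than in shHNRNPU, and both gene starts fell just outside it. The start of SHH then lay 27.5 kb before the border, in a domain from 155.36 to 155.84 Mb with EN2, CNPY1 and RBM33, and the start of LMBR1 lay 13.2 kb past the other border. When each domain was extended by 1 bin on both sides, SHH and LMBR1 lay together in all 4 libraries. When both whole gene bodies had to lie inside 1 domain, they were together in 0 libraries. In the 3 libraries with the shared domain, 21 bases of SHH lay before its start at 155.80 Mb. In shLUC replicate 1 the gene starts already lay in different domains.

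**Figure D1:**
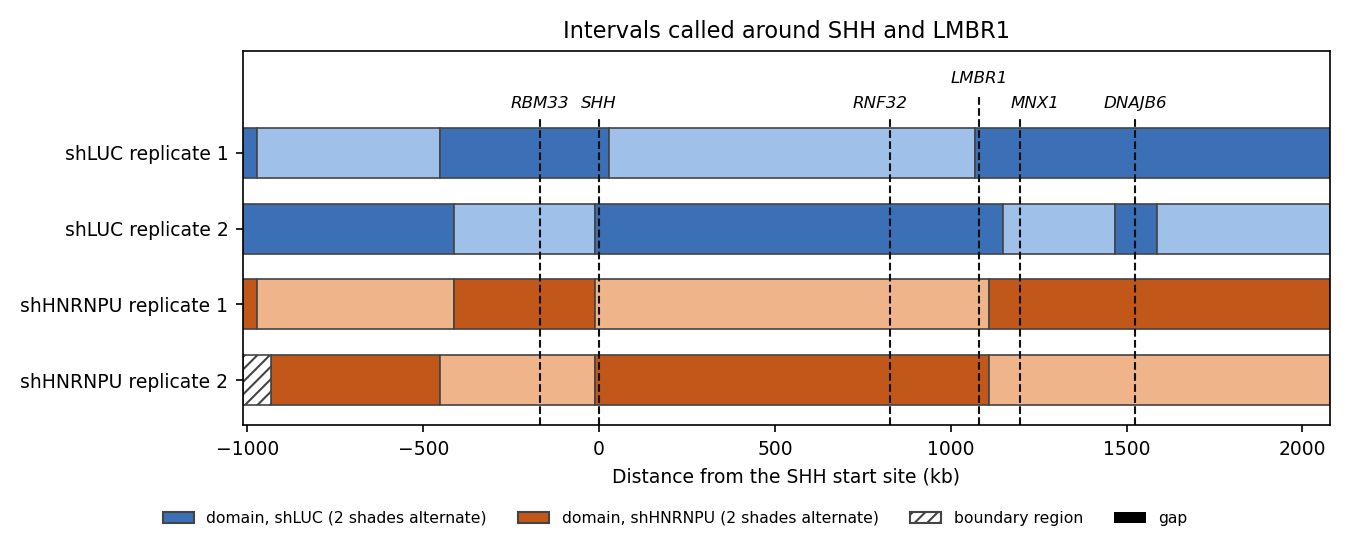
Domains, boundary regions and gaps called in each library around SHH and LMBR1 (horizontal axis, distance from the SHH start in kb; 1 row per library; dashed lines, gene starts). The long domain between SHH and LMBR1 is present in each row, and in shLUC replicate 1 it is narrower by 1 bin or more at each end and leaves both gene starts outside.

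The border beside SHH was found in all 4 libraries within 1 bin, at 155.84 Mb in shLUC replicate 1 and at 155.80 Mb in the other 3. At the second position only the last 21 bases of SHH, at its 3′ end, lay beyond the border. A border next to EN2 (a homeobox transcription factor) was at 155.36, 155.40, 155.40 and 155.36 Mb (shLUC 1 and 2, then shHNRNPU 1 and 2), and these 4 positions also lay within 1 bin. The border beside LMBR1 was at 156.88, 156.96, 156.92 and 156.92 Mb in the same order, so both shHNRNPU libraries lay between the shLUC libraries. RNF32, a ring finger protein gene, shared the domain of SHH in 3 libraries, and NOM1 did so in shLUC replicate 2 alone. MNX1, a motor neuron transcription factor, was in a domain with LMBR1 in shLUC replicate 1 and with SHH in 0 libraries. The number of domains that touched the window was 5 and 6 in shLUC and 5 and 4 in shHNRNPU. The difference of -1.0 domains was no larger than the spread between replicates, since 1 library of each group had 5 (two-sided exact permutation test, p = 0.667).

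At the SOX9 locus, KCNJ2 and SOX9 lay in different domains in all 4 libraries. KCNJ2 runs from 70169532 to 70180044 on chromosome 17 and SOX9 from 72121020 to 72126416, which puts 1951 kb between their left ends. A border at 70.64 Mb separated them, and it was in the same bin in each library. On the other side of SOX9 3 libraries had a border at 72.56 Mb, and shHNRNPU replicate 2 had it at 72.60 Mb. The desert between these borders was 1 domain of 1920 kb in shLUC replicate 2 and shHNRNPU replicate 1. It was divided in shLUC replicate 1, by a border at 71.96 Mb, and in shHNRNPU replicate 2, by a border at 72.00 Mb. The domain with SOX9 was therefore 600 and 1920 kb long in shLUC, and 1920 and 600 kb long in shHNRNPU. The difference between the group means was 0 kb, and each group held 1 divided and 1 undivided desert. No other protein-coding gene of the annotation used here started in the domain of SOX9 in any library.

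**Figure D2:**
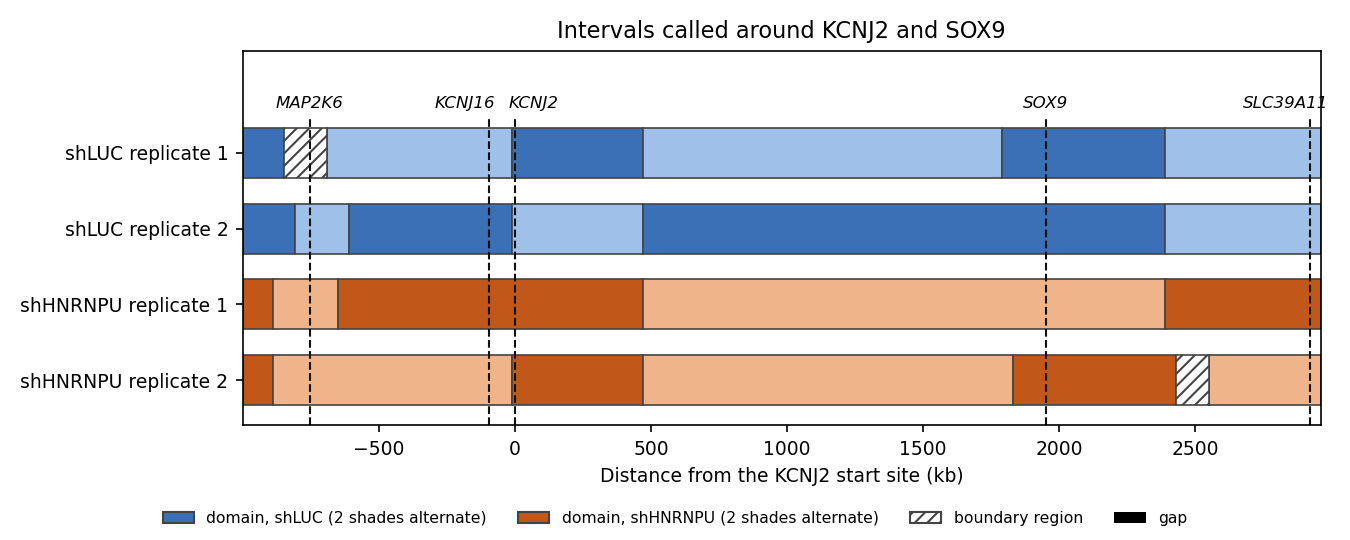
Intervals called around KCNJ2 and SOX9 (horizontal axis, distance from the KCNJ2 start in kb; 1 row per library; dashed lines, gene starts). A border between the genes is at the same position in the 4 rows, and a further border divides the desert beside SOX9 in 1 library of each group.

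KCNJ2 started 9.53 kb past a border at 70.16 Mb in 3 libraries, shLUC replicates 1 and 2 and shHNRNPU replicate 2. These 3 libraries had the same domain, from 70.16 to 70.64 Mb (480 kb), with KCNJ2 as the only coding gene start. In shHNRNPU replicate 1 the border nearest to 70.16 Mb was the one at 70.64 Mb, 12 bins away, and KCNJ2 lay there in a domain of 1120 kb together with KCNJ16, its potassium channel neighbour. The shHNRNPU mean of 800 ± 453 kb was above the shLUC mean of 480 ± 0 kb (SD, n = 2 each), but 3 libraries had the same length (two-sided exact permutation test, p = 1.0). Without shHNRNPU replicate 1 the difference was 0 kb. The window was touched by 6 and 6 domains in shLUC and by 5 and 6 in shHNRNPU (difference -0.5, exact permutation p = 1.0).

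At the EPHA4 locus, WNT6, IHH, EPHA4 and PAX3 lay in 4 different domains in each library. EPHA4 runs from 221418027 to 221574202 on chromosome 2 (minus strand). Its domain was long, with 1960 and 2440 kb in shLUC and 2000 and 2320 kb in shHNRNPU. The means of 2200 ± 339 and 2160 ± 226 kb (SD, n = 2 each) differed by less than either SD (exact permutation p = 1.0). In the 4 libraries, 88.1%, 92.8%, 88.7% and 83.8% of autosomal bins in domains lay in shorter ones. The EPHA4 domain held 0, 4, 1 and 0 other coding gene starts (shLUC 1 and 2, then shHNRNPU 1 and 2), SLC4A3 (an anion exchanger) among them in shLUC replicate 2 and shHNRNPU replicate 1.

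The left border of the EPHA4 domain was at 219.64, 219.56, 219.60 and 219.64 Mb in that order of libraries. In shLUC replicate 1 and shHNRNPU replicate 2 a gap of 1 bin, from 219.60 to 219.64 Mb, preceded it. The right end took 1 of 2 positions. It was at 221.60 Mb, 25.8 kb beyond the start of EPHA4, in replicate 1 of both groups, and a domain of 400 kb then filled the space up to 222.00 Mb. In replicate 2 of both groups the EPHA4 domain itself reached 222.00 Mb (shLUC) or 221.96 Mb (shHNRNPU). Between EPHA4 and PAX3 all 4 libraries had this last border, and replicates 1 also had the border at 221.60 Mb.

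PAX3 runs from 222199887 to 222298998 (minus strand), and its domain was 560 and 680 kb long in shLUC and 680 and 680 kb in shHNRNPU. It began at 222.00 Mb in 3 libraries and at 221.96 Mb in shHNRNPU replicate 2. SGPP2, an enzyme gene of sphingolipid metabolism, shared it in all 4 libraries. FARSB and MOGAT1 shared it in shLUC replicate 2 and shHNRNPU replicate 1 only. The shorter domain in shLUC replicate 1 ended at a boundary region from 222.56 to 222.68 Mb. The difference between the groups was 60 kb (exact permutation p = 1.0).

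**Figure D3:**
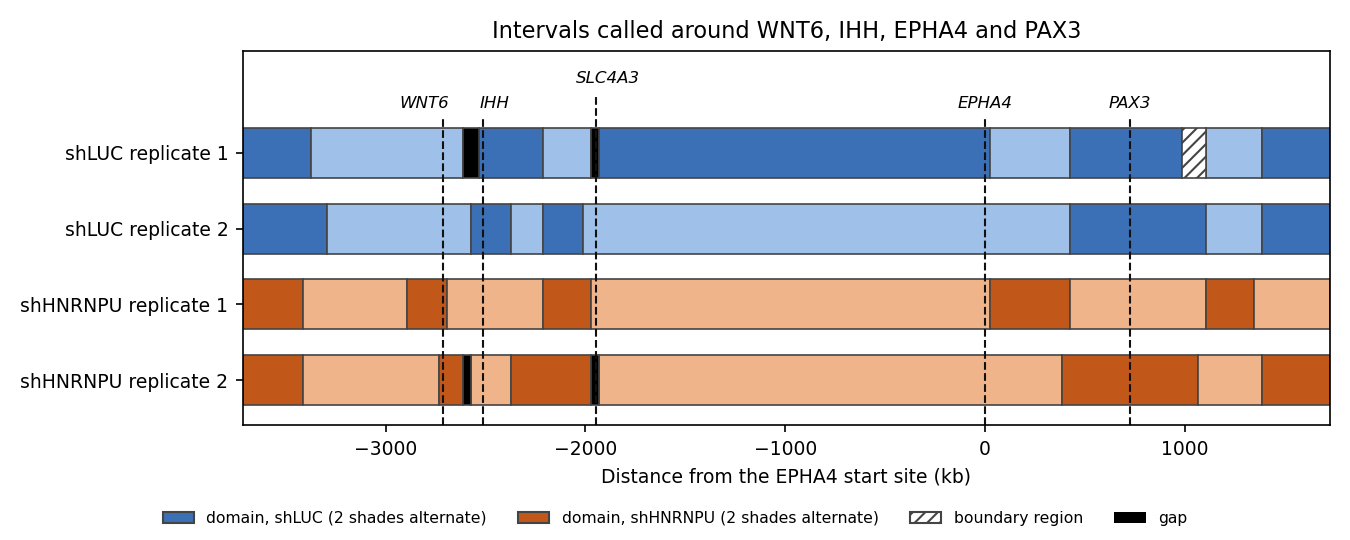
Intervals called around WNT6, IHH, EPHA4 and PAX3 (horizontal axis, distance from the EPHA4 start in kb; 1 row per library; dashed lines, gene starts). The 4 genes lie in separate domains in each row, and the domain with WNT6 is shorter in both shHNRNPU rows (200 and 120 kb) than in both shLUC rows (760 and 720 kb).

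WNT6 had the largest difference in domain length between the groups among the 8 genes. It runs from 218859805 to 218874233 on chromosome 2 (plus strand), and its domain was 760 and 720 kb long in shLUC and 200 and 120 kb long in shHNRNPU. The shLUC mean was 740 ± 28.3 kb and the shHNRNPU mean 160 ± 56.6 kb (SD, n = 2 each), and the gap between them (-580 kb) was larger than the spread in either group. By exact permutation (two-sided) p was 0.333, the smallest value that 2 libraries against 2 allow, so no difference in these windows can pass 0.05. Both shHNRNPU libraries had a border close to the start of WNT6, but on opposite sides of it. This border was at 218.88 Mb in replicate 1, 20.2 kb past the start and inside the neighbouring gene WNT10A, and at 218.84 Mb in replicate 2, 19.8 kb before the start. The nearest borders in shLUC were at 218.96 and 219.00 Mb, 100 and 140 kb away. The domain in shHNRNPU replicate 1 ran from 218.68 to 218.88 Mb and in replicate 2 from 218.84 to 218.96 Mb, so they overlapped by 1 bin. The border at 218.68 Mb was in replicate 1 alone, and the nearest borders of the other libraries lay 4 to 8 bins away. A domain of 520 kb lay before it. In replicate 2 a domain of 680 kb ended less than 1 bin before the start of WNT6. The short lengths thus rested on a border of 1 library and on one within 1 bin of the gene start. With the replicate 2 border at 218.88 Mb, 1 bin later, WNT6 would start in the domain that began at 218.16 Mb. With the replicate 1 border at 218.84 Mb, 1 bin earlier, WNT6 would start in the domain that ended at 219.36 Mb. A shift of 1 bin would therefore end either short length, and the group difference after such shifts was not computed.

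The domains with WNT6 were rich in genes. They held 21 and 19 other coding gene starts in shLUC and 4 and 2 in shHNRNPU. Per Mb of domain this was 28.9 and 27.8 starts in shLUC and 25 and 25 in shHNRNPU, WNT6 included, against 6.63 to 6.81 over all autosomal domains of the 4 libraries. WNT10A, a second Wnt ligand, lay in the domain of WNT6 in all 4 libraries. CYP27A1, an enzyme of bile acid synthesis, and TTLL4 lay with WNT6 in 3 libraries and outside its domain in shHNRNPU replicate 2. CDK5R2, a kinase activator of neurons, started in the domain of WNT6 in 3 libraries and in that of IHH in shHNRNPU replicate 1. In shLUC replicate 1 and shHNRNPU replicate 2 the domain of WNT6 ended inside CDK5R2, at 218.96 Mb. Most of that gene (218959666 to 218962155) then lay in a gap. Over all coding gene starts that lay in a domain in each library, both shHNRNPU domains were shorter than both shLUC domains at 6.99% and longer at 20.0%. Among the 8 genes these counts were 2 (WNT6 and LMBR1) and 0. At LMBR1 the values were 1520 and 1160 kb in shLUC and 1120 and 1120 kb in shHNRNPU (exact permutation p = 0.333), a difference of -220 kb that was -40 kb, or 1 bin, without shLUC replicate 1. With the domain that held most of the gene body it was 20 kb, since 211 of the 224 kb of LMBR1 lay in the domain before its start in shLUC replicate 1, and WNT6 alone then had shorter domains in both shHNRNPU libraries. Domains in shHNRNPU at least 3-fold shorter than in shLUC, as at WNT6, occurred at 0.222% of those gene starts. This limit was set after the value at WNT6 was known, and neighbouring genes share domains, so these shares are descriptions.

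IHH runs from 219054424 to 219060921 (minus strand) and lay in a short domain throughout, with 320 and 200 kb in shLUC and 480 and 200 kb in shHNRNPU. The difference of 80 kb lay within the spread of either group (exact permutation p = 1.0), and shLUC replicate 2 and shHNRNPU replicate 2 had an identical domain from 219.00 to 219.20 Mb. NHEJ1, a DNA repair gene that neighbours IHH, shared the domain in all 4 libraries. Between WNT6 and IHH, whose starts are 201 kb apart, each library had a border. It lay at 218.96 and 219.04 Mb in shLUC replicate 1, around a gap, at 219.00 Mb in shLUC replicate 2 and at 218.88 Mb in shHNRNPU replicate 1. In shHNRNPU replicate 2 the borders were at 218.96 and 219.00 Mb, again around a gap. FEV, a transcription factor of serotonin neurons that starts between them, was in the domain of WNT6 in shLUC replicate 2 and of IHH in shHNRNPU replicate 1. The EPHA4 window was touched by 9 and 9 domains in shLUC and by 10 and 9 in shHNRNPU (difference 0.5, exact permutation p = 1.0), and the difference was -0.5 in the span of the 4 genes with no flank.

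Next, the 8 domain lengths were set beside those of other genes. All 8 gene starts lay inside a domain in each library, as did 16689 of the 20037 coding gene starts. Their median domain length was 580 and 940 kb in shLUC and 1120 and 640 kb in shHNRNPU. At the 16689 coding gene starts that lay in a domain in each library, the medians were 720, 720, 760 and 1160 kb. EPHA4 had the longest domain of the 8 in all 4 libraries. The shortest domain was at IHH in both shLUC libraries and at WNT6 in both shHNRNPU libraries. In shHNRNPU replicate 1, WNT6 (200 kb) lay below IHH (480 kb), and in replicate 2 they differed by 80 kb, or 2 bins. SHH had 480 and 1160 kb in shLUC and 1120 and 1120 kb in shHNRNPU, a difference of 300 kb that became -40 kb without shLUC replicate 1 (exact permutation p = 1.0 with all libraries).

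**Figure D4:**
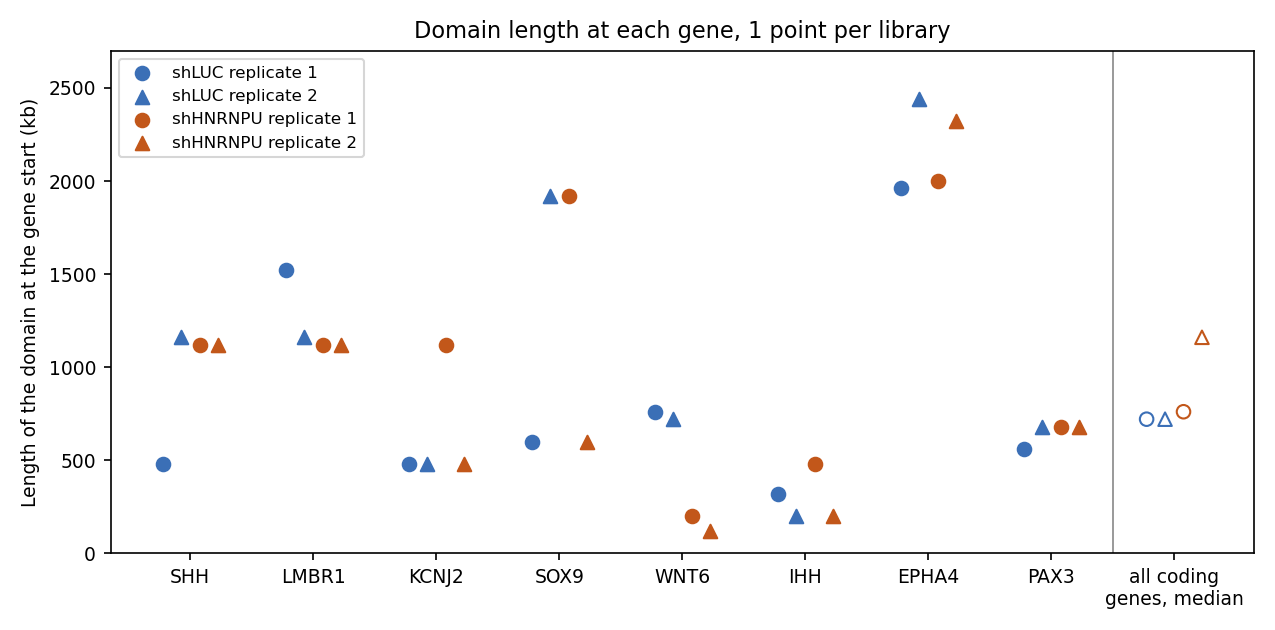
Length of the domain at the start of each gene in kb (vertical axis), with 1 point per library (circles, replicate 1; triangles, replicate 2; blue, shLUC; orange, shHNRNPU). Open symbols show the median over all coding gene starts that lay in a domain in each library. The groups separate at WNT6 and, by 1 bin or more, at LMBR1, and overlap or share a value at the other 6 genes.

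Gene starts were also compared by their distance to the nearest border. Within 40 kb of a border lay 5 and 2 of the 8 genes in shLUC and 4 and 4 in shHNRNPU. In the same libraries 21.2%, 21.1%, 20.5% and 15.4% of all coding gene starts lay so close. SHH was within 40 kb in all 4 libraries (27.5, 12.5, 12.5 and 12.5 kb) and KCNJ2 in 3. SOX9 and PAX3 were never within 100 kb of a border, with 161, 439, 439 and 121 kb for SOX9 and 261, 299, 299 and 339 kb for PAX3. The distance at WNT6 was 100 and 140 kb in shLUC and 20.2 and 19.8 kb in shHNRNPU (difference -100 kb, exact permutation p = 0.333). In shHNRNPU these distances ran to borders on opposite sides of the start. At the other 7 genes the groups overlapped or shared a value. How often the groups separate in this measure over all coding gene starts was not computed.

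Then the borders of the 3 windows were counted. Each domain start and each domain end counted as a border, shared by libraries that had it within 1 bin. Borders were matched one to one to their position in the first library of the set (shLUC replicate 1 for all 4 libraries), so matched positions could differ by 2 bins among the others, as at 69.32, 69.36, 69.28 and 69.28 Mb on chromosome 17. The border beside LMBR1, with 2 bins between the shLUC libraries, was not counted as shared by them. The windows held 21 and 18 borders in shLUC and 17 and 20 in shHNRNPU. Of these, 9, 8, 9 and 9 had a border within 1 bin in all 4 libraries, or 42.9%, 44.4%, 52.9% and 45.0%. Over the whole series the shares were about 40% in both shLUC libraries, 40.5% in shHNRNPU replicate 1 and 46.4% in replicate 2. Matched one to one, 9 borders were present in all 4 libraries, of which 4 were at the EPHA4 locus, 3 at the SOX9 locus and 2 at the SHH locus. Of the 9, 1 (at 70.64 Mb on chromosome 17, between KCNJ2 and SOX9) was in an identical bin in all 4 libraries, where 39.8% of all such borders were.

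No border in the windows was called lost or gained. Lost meant shared by the shLUC pair with nothing nearer than 4 bins (160 kb) in either shHNRNPU library, and gained meant the converse. This applied to 0 of 12 borders shared by the shLUC libraries and to 0 of 13 shared by the shHNRNPU libraries, whereas 5.99% and 2.94% were called over the whole series. Of the 12 borders of shLUC, 9 (75%) had a border in both shHNRNPU libraries within 1 bin of either shLUC position, against 62.4% over the whole series. The other 3 each had no border within 1 bin in 1 shHNRNPU library. Unmatched in replicate 1 were the border at 70.16 Mb beside KCNJ2 and the border between WNT6 and IHH (218.96 to 219.04 Mb). The border at 219.36 Mb right of IHH was unmatched in replicate 2. Between WNT6 and IHH, replicate 1 did have a border, at 218.88 Mb, 2 bins from 218.96 Mb. The border beside WNT6 was not called gained, because the nearest shLUC border lay 2 to 4 bins away. When a border 2 bins away already counted as absent, it was the 1 gained border of the windows, at a share of 6.69% over the whole series. With windows this small, counts of 0 do not show that such borders are absent.

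Finally, the pairs of genes were set beside other positions at the same separation. SHH and LMBR1, 27 bins apart, were in 1 domain in 3 libraries, while 11.6% and 11.9% of autosomal bin pairs at that separation were in shLUC and 11.5% and 18.6% in shHNRNPU. WNT6 and IHH, 5 bins apart, were in separate domains in all 4 libraries, although 66.6% and 66.8% of bin pairs at that separation were together in shLUC and 67.1% and 71.7% in shHNRNPU. For EPHA4 and PAX3, 18 bins apart and also separate throughout, the shares were 22.6%, 23.0%, 22.9% and 31.3%. For KCNJ2 and SOX9, 49 bins apart, they were 3.12%, 3.07%, 3.16% and 6.58%. The other 4 pairs were 63 to 86 bins apart and never together, at shares of 0.550% to 3.72%. The higher shares in shHNRNPU replicate 2 go with its lower number of domains. Bin pairs overlap and come from the same domains, so these shares describe the libraries and test nothing.

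**Figure D5:**
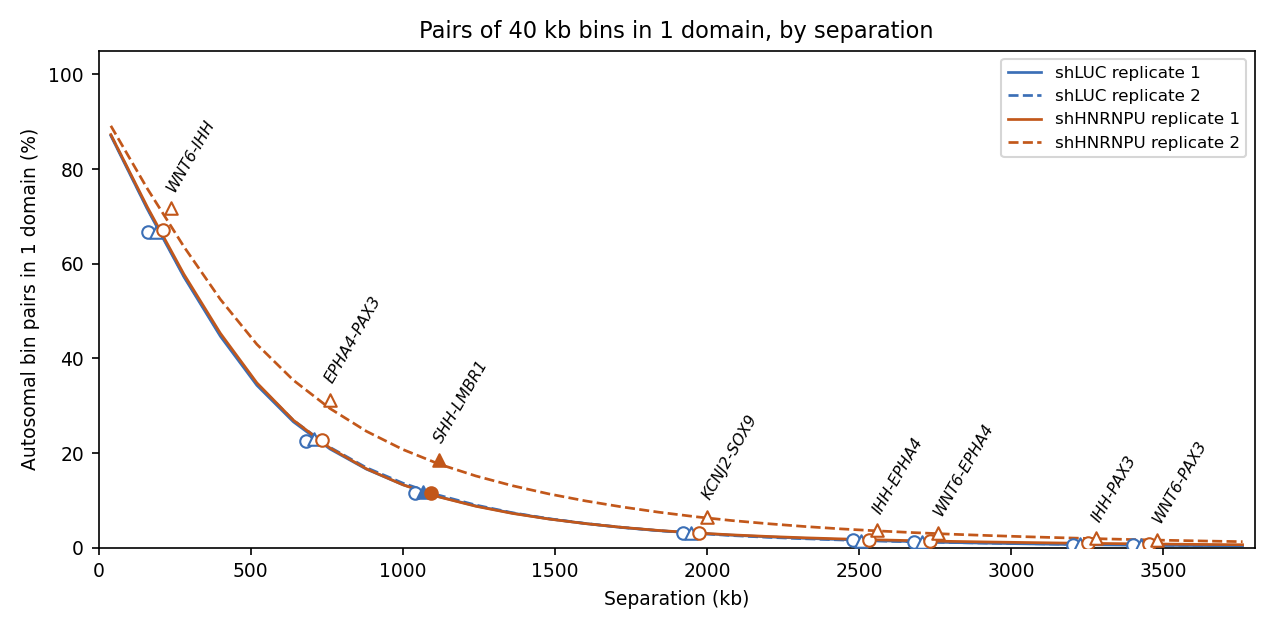
Share of autosomal pairs of 40 kb bins that lie in 1 domain (vertical axis, %) against their separation in kb, with 1 line per library. Symbols mark the 8 gene pairs, moved slightly sideways by library so that they do not overlap, and are filled where both genes shared a domain, which occurs at SHH and LMBR1 in 3 of the 4 libraries.

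Other genes were taken from a list of 28 neighbours, of which 25 started inside the windows. With any of the 8 genes, 17 of the 25 shared a domain in at least 1 library. Those that did so in all 4 libraries were 3 in number: WNT10A with WNT6, NHEJ1 with IHH and SGPP2 with PAX3. INSIG1, ABCA5, ABCA10, MAP2K6, SLC39A11, DES, SPEG and ACSL3 shared a domain with none of the 8 genes in the 4 libraries.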

How the data were processed

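Per the labels, chromatin of H1 hPSCs was fixed, cut with HindIII, filled in with a biotinylated nucleotide and ligated, and 4 Hi-C libraries were sequenced. The authors deposited 3 interval files per library (12 in all), with a start and an end in multiples of 40 kb and no score. The submitters' processing notes name Bowtie2 and hg38. The matrix normalization, the domain caller and its settings are not given in the sources used here, and each can move borders. Depth is unknown, so no counting interval is given.

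Chromosome ends were the same in all libraries, and on each of the 24 chromosomes the last RefSeq gene ended 43.8 to 165 kb before the end in the files, as hg38 coordinates allow. Gene starts came from RefSeq (GRCh38.p14). The strand was not in the tables used for SOX9, NOM1 and DES, and their left end served as the start, which for SOX9 is the bin of its other end too. FAM104A had no entry. Neighbours were named from a list of 28 genes; CYP27A1 and TTLL4 were added after their domains were seen. Intervals of 0 length were dropped (0 in the windows). Groups, from the sample titles, were compared by exact two-sided permutation of the library labels. The calling of borders was tested on changes planted in the borders of shLUC replicate 1, with simulated replicates that differed by at most 1 bin. The real libraries differed more, so that test does not measure the error of their calls. The genes and lists were chosen with earlier results of these data known. Alternatives were other windows, gene positions, match and absence distances, a replicate block and each library left out. Python 3.11.15, numpy 2.4.6 and matplotlib 3.10.9 were used.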

Additional observations from a re-analysis of the deposited data

How the results depend on the processing

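With 2 libraries per group the exact permutation test cannot pass 0.05, and those p-values therefore bear on no statement of stability; the depth behind the border calls is unknown. With the span of the genes alone as window, the EPHA4 locus went from 0.5 to -0.5 domains. With the domain that holds most of the gene body, the difference at LMBR1 went from -220 to 20 kb, because most of LMBR1 lay in the domain before its start in shLUC replicate 1. With absence within 1 bin, 1 border (at WNT6) was gained. With whole gene bodies, 0 pairs and 0 libraries had SHH and LMBR1 together. Where their starts shared a domain, 21 bases of SHH lay past the border. In shLUC replicate 1 their starts already lay in different domains. With domains extended by 1 bin, 2 pairs were together, WNT6 and IHH in shHNRNPU replicate 1 being the second. With the same window the SOX9 locus went from -0.5 to 0 domains. With windows of 0.5 Mb flank, the difference in domains went from -1 to -0.5 at the SHH locus and from -0.5 to -1 at the SOX9 locus. With positions rounded to 10 kb, the difference in border distance at SHH went from -7.54 to -20 kb. The other alternatives that kept all libraries turned no direction and moved no count of borders, pairs or libraries by over 1.5 times.

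With each library left out in turn, the domain length differed by -40 to 640 kb at SHH, -400 to -40 kb at LMBR1, 0 to 640 kb at KCNJ2, -660 to 660 kb at SOX9, -620 to -540 kb at WNT6, -60 to 220 kb at IHH, -280 to 200 kb at EPHA4 and 0 to 120 kb at PAX3. The sign turned without shLUC replicate 1 at SHH, without shHNRNPU replicate 1 at IHH (-60 kb) and EPHA4 (120 kb), and without shLUC replicate 2 at EPHA4 (200 kb). The distance to the nearest border differed by -15.1 to 0 kb at SHH, -40 to 13.6 kb at LMBR1, 0 to 461 kb at KCNJ2, -179 to 139 kb at SOX9, -120 to -80.2 kb at WNT6, 20 to 140 kb at IHH, -220 to 180 kb at EPHA4 and 19.0 to 59.0 kb at PAX3. It turned sign without shLUC replicate 2 at LMBR1 (13.6 kb), SOX9 (119 kb) and EPHA4 (180 kb), without shHNRNPU replicate 2 at SOX9 (139 kb) and without shHNRNPU replicate 1 at EPHA4 (160 kb). Domains per window differed by -1.5 to -0.5 (SHH), -1.0 to 0 (SOX9) and 0 to 1.0 (EPHA4). Lost borders ranged from 0 to 2 (2 without shLUC replicate 1, and 1 without either shHNRNPU library). Gained borders ranged from 0 to 1 (1 without shLUC replicate 1 or either shHNRNPU library), as fewer libraries then had to share or lack a border. Pairs in 1 domain stayed at 1, and SHH and LMBR1 were together in 2 or 3 of the remaining 3 libraries.

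The replicate block, the mean difference of same-numbered libraries, gave the same differences (-580 kb at WNT6 and -220 kb at LMBR1, each with an exact sign-flip p of 0.5, the smallest possible). No label ties equal numbers to one batch, and over the 24 chromosomes the domain counts of equal-numbered libraries deviated from their group means with a correlation of 0.174. At the EPHA4 locus the border at 221.60 Mb was in replicate 1 of both groups.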

Other observations

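The outer parts of the windows held calls made in a single library. Around DNAJB6, a chaperone gene, shLUC replicate 2 had a domain of 120 kb from 157.28 to 157.40 Mb on chromosome 7, whose borders lay 9 to 13 bins from any border of the other 3 libraries. In those 3, DNAJB6 lay in a domain of 1520, 1600 and 2400 kb (shLUC replicate 1, then shHNRNPU replicates 1 and 2). On chromosome 17, MAP2K6, a stress kinase gene, started in a boundary region from 69.32 to 69.48 Mb in shLUC replicate 1 and in domains in the other 3 libraries. In shLUC replicate 2 and shHNRNPU replicate 1 these domains were short (200 and 240 kb). Their borders lay 1 or 2 bins from those of the boundary region, so there mainly the kind of interval differed.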
